A study of Homo sapiens with 6 samples.

Results

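Metallothioneins are described here by 6 genes, MT1X, MT2A, MT1F, MT1M, MT1B and MT1L, out of 14884 named genes measured on 6 arrays. They were chosen by gene symbol, with the brightest probe set taken per gene, and each of the 6 had 1 named probe set. A gene counts as measured here if a named probe set carried its symbol. Of 53617 probe sets 37519 were unnamed, so a gene not counted as measured may still be on the array. The RNA came from SH-SY5Y, a human neuroblastoma line with features of sympathetic neurons, and was read on Affymetrix Human Gene 2.0 ST arrays. Cells had received securinine at 30 µM, 16F16 at 4 µM or the solvent methanol alone (mock) for 24 h, with 2 arrays per group. Per the labels, each compound inhibits protein disulfide isomerase, which pairs cysteines of newly made proteins in the endoplasmic reticulum. The doses of the compounds differed, and the groups shared the line, the medium and the time. The arrays of a group are labelled as biological replicates without a statement of how cultures were kept apart, so p-values measure the spread between these samples.

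Metallothioneins are very small proteins, rich in cysteine, whose thiols hold zinc and copper and also bind cadmium and other toxic metals. The transcription factor MTF1 senses zinc and switches the genes on through short promoter sequences called metal response elements, and glucocorticoids and oxidants induce several of them as well. In brain, MT1 and MT2 forms are known mainly from astrocytes and MT3 from neurons. MT2A and MT1X are the broadly expressed forms, MT1F, MT1M and MT1B are further MT1 forms, and MT1L is annotated as a transcribed pseudogene. All of them lie on chromosome 16 in a row of 16 metallothionein genes and pseudogenes, of which 11 were measured.

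The deposited values are log2 expression per probe set. The lower quartile of all probe sets lay between 2.79 and 2.84 on the 6 arrays and the median between 4.16 and 4.23. MT1X and MT2A were above the median on all 6 arrays, with 80.4% to 91.0% of probe sets at or below MT1X and 75.2% to 82.5% at or below MT2A. MT1F lay between 48.6% and 73.7%. MT1M, MT1B and MT1L were near background, meaning at or below the lower quartile on at least 4 arrays: MT1M on 5 arrays, MT1B on 6 and MT1L on 6. No detection call was used, so low expression and background cannot be told apart for those 3 genes. The members are close paralogs, and how far each probe set reads its neighbours' transcripts was not tested.

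**Figure D1:**
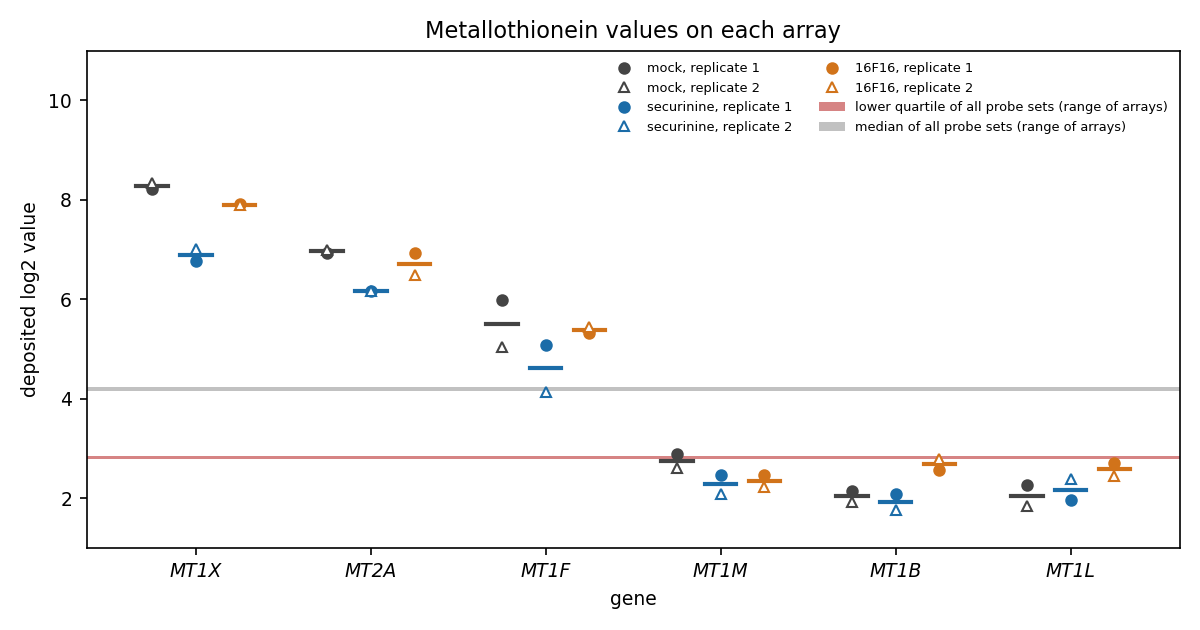
Deposited log2 value (vertical axis) of the 6 metallothioneins on each array, by group, with filled circles for replicate 1, open triangles for replicate 2 and a short line for the group mean; the shaded lines are the range over arrays of the median and of the lower quartile of all probe sets. MT1X lies at 8.22 and 8.35 in mock, 6.76 and 7.01 with securinine and 7.91 and 7.89 with 16F16. MT1B and MT1L lie at or below the lower quartile on all 6 arrays and MT1M on 5.

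The 2 members with the highest array ranks, MT1X and MT2A, fell with securinine. MT1X read 8.22 and 8.35 in mock, 6.76 and 7.01 with securinine, and 7.91 and 7.89 with 16F16. The 3 groups did not overlap, with mock highest, 16F16 next and securinine lowest. Against mock, MT1X fell by 1.40 ± 0.11 with securinine (log2 difference ± SE, 2 arrays per group), a 2.64-fold decrease with a 95% interval of -1.67 to -1.13 and an adjusted p of 0.0030 in limma. Of the 14884 genes, 59 (0.396%) had a difference as low as that of MT1X or lower. MT1X kept its call under each of the 15 alternatives run, but these were not 15 separate checks. In the 9 that did not leave out 1 array, adjusted p-values in limma were 1.3e-06 to 0.017. Of those 9, only quantile normalization and median centring could change the difference, to -1.43 in both. Leaving out 1 mock or securinine array moved the difference between -1.52 and -1.28. Leaving out either 16F16 array only repeated the fit with the mock and securinine arrays alone.

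MT2A, a broadly expressed metallothionein that glucocorticoids also induce, read 6.94 and 7.00 in mock, 6.16 and 6.17 with securinine, and 6.93 and 6.49 with 16F16. The securinine arrays lay below the other 4. One 16F16 array sat just under the mock arrays and the other between mock and securinine. MT2A fell by 0.80 ± 0.15 with securinine, a 1.74-fold decrease with a 95% interval of -1.17 to -0.43 and an adjusted p of 0.020 in limma. MT2A no longer passed when all 53617 probe sets were tested (adjusted p = 0.064 in limma). It also no longer passed when any 1 mock or securinine array was left out, fits with 1 array in a group in which most calls of the whole table were lost. The difference then lay between -0.83 and -0.77. Among the alternatives that did not leave out 1 array, only quantile normalization and median centring could change the difference, to -0.83 in both.

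MT1F, another zinc-binding MT1 form, read 5.99 and 5.03 in mock, 5.09 and 4.13 with securinine, and 5.32 and 5.44 with 16F16. Replicate 1 exceeded replicate 2 by 0.95 in mock and by 0.95 with securinine, so the groups overlapped although the group means were 5.51 ± 0.67 and 4.61 ± 0.67 (SD, n = 2). The difference was -0.90 ± 0.41, with a 95% interval of -1.91 to 0.11 and an adjusted p of 0.19. The SE of MT1F was 2.71 times that of MT2A, and leaving out 1 array moved the difference between -1.38 and -0.42. MT1F passed under none of the 15 alternatives in limma. Adjusted p-values ran from 0.057 to 0.32 over the 9 that did not leave out 1 array.

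The members near background gave small or uncertain differences with securinine. MT1M, a form studied in liver, read 2.88 and 2.60 in mock, 2.47 and 2.09 with securinine, and 2.46 and 2.23 with 16F16, so the mock arrays were the highest. Its difference with securinine was -0.47 ± 0.17 (adjusted p = 0.12 in limma), and -0.66 to -0.27 when 1 array was left out. MT1B read 2.14 and 1.93 in mock and 2.09 and 1.76 with securinine, a difference of -0.11 ± 0.15. MT1L read 2.26 and 1.84 in mock and 1.96 and 2.38 with securinine, a difference of 0.12 ± 0.21. Both overlapped with mock, and leaving out 1 array turned the sign of either.

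In all, 2 of the 6 members fell with securinine and 0 rose, beside 10.6% of all genes that fell, 8.40% that rose and 19.0% called in either direction. The 3 members whose securinine arrays lay below mock, MT1X, MT2A and MT1M, compare with 33.9% of all genes, and 0 members lay wholly above mock, beside 27.0% of all genes. The median difference of the 6 was -0.63, and that of all genes -0.035.

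Metal response elements are the known switch of the family, so promoters of the members were searched for them. Of the 6 members, MT1X, MT2A and MT1B had a promoter window in the reference used. MT1F, MT1M and MT1L had none and could not be searched. MT1X and MT2A moved the same way with securinine, and MT1B was near background on all 6 arrays. RefSeq promoter windows (GRCh38.p14) were matched by symbol for these 3 members, and the 250 bases before the annotated start are given 5′ to 3′ on the plus strand. Capitals mark matches to the core element, searched as TGCACNC and TGCGCNC on both strands, so that a match on the opposite strand reads GNGTGCA or GNGCGCA. The windows are chr16:56682220-56682469 for MT1X, chr16:56608334-56608583 for MT2A and chr16:56651636-56651885 for MT1B.
MT1X: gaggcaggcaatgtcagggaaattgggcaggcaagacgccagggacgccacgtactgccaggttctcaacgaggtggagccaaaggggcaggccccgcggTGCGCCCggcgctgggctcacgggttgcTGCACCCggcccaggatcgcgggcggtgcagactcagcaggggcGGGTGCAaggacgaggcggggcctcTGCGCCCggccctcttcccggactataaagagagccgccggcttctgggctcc
MT2A: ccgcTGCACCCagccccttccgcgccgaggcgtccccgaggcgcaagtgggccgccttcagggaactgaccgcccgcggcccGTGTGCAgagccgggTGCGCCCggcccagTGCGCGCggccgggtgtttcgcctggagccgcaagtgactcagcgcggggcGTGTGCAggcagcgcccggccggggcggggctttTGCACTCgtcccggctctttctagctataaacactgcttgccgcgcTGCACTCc
MT1B: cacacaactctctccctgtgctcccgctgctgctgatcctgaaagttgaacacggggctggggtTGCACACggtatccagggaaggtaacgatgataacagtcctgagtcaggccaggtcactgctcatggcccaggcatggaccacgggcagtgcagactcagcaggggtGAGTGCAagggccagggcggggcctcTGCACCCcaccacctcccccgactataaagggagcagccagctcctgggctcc
MT1X held 4 matches, MT2A 7 and MT1B 3, and no matches overlapped within a window. Among 35116 promoter windows of that length, 24.8% held at least 1 match, 0.370% held as many as MT1X or more, 0.0313% as many as MT2A or more and 1.58% as many as MT1B or more. All 3 carried a match that began 53 or 54 bases before the start and an opposite-strand match 78, 88 or 79 bases before it in MT1X, MT2A and MT1B. Among metallothioneins that are no members, MT1H held 8 matches and MT4 held 3, and neither passed in any comparison in limma. MT1H had a mean of 2.70 over the 6 arrays and lay at or below the lower quartile on 3, leaving little room for a fall to show. Its unadjusted p between the compounds was 0.026 in limma. For MT4, 73.1% to 76.3% of probe sets lay at or below it. MT1E, MT1G and MT3 had no window. A match describes letters and not a bound site.

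With 16F16, 0 of the 6 members passed against mock in limma, beside 0.779% of all genes that fell, 0.719% that rose and 1.50% called in either direction. At an unadjusted p under 0.05 there were 3 members, MT1X, MT1B and MT1L, beside 21.1% of all genes (33.6% with securinine against mock and 27.7% between the compounds). MT1X differed by -0.38 ± 0.11, with a 95% interval of -0.66 to -0.11 and an adjusted p of 0.14, and of the 15 alternatives it passed only when the variance prior followed intensity (adjusted p = 0.017), a fit that called 1808 genes in place of 223. Its 16F16 arrays both lay below the mock arrays. MT2A differed by -0.26 ± 0.15 (adjusted p = 0.39), and that value was -0.037 without 16F16 replicate 2 and -0.48 without 16F16 replicate 1. MT1F differed by -0.13 ± 0.41, and its interval of -1.14 to 0.88 leaves a change of 2-fold in the lower direction inside it. MT1M differed by -0.40 ± 0.17 (adjusted p = 0.27). When 1 array was left out, MT1F ranged from -0.61 to 0.35 and MT1M from -0.54 to -0.25.

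MT1B and MT1L went the other way with 16F16, though near background. MT1B read 2.57 and 2.79 with 16F16 against 2.14 and 1.93 in mock, a difference of 0.64 ± 0.15 with an adjusted p of 0.099. The pseudogene MT1L read 2.71 and 2.45 against 2.26 and 1.84, a difference of 0.53 ± 0.21 with an adjusted p of 0.22 and a range of 0.32 to 0.74 when 1 array was left out. Neither gene's groups overlapped, as was so for 24.1% of all genes in that direction, and every one of these values is below the lower quartile of its array. On the lower side 3 of the 6 members had groups that did not overlap, namely MT1X, MT2A and MT1M, beside 27.7% of all genes. For MT2A the nearest arrays read 6.93 with 16F16 and 6.94 in mock, and MT1M was near background. The median difference of the 6 members was -0.19, and that of all genes -0.012.

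Set directly against each other at their different doses, 16F16 left MT1X higher than securinine did. The log2 difference was 1.02 ± 0.11, a 2.02-fold higher level with 16F16, with a 95% interval of 0.75 to 1.29 and an adjusted p of 0.012. MT1B was higher by 0.75 ± 0.15 (adjusted p = 0.040), with all 4 values below the lower quartile of their arrays. So 2 of the 6 members were called higher and 0 lower, beside 5.55% of all genes called higher, 3.96% called lower and 9.51% called in either direction. MT2A was at 0.54 ± 0.15 (adjusted p = 0.081), MT1F at 0.77 ± 0.41 (0.29), MT1L at 0.41 ± 0.21 (0.26) and MT1M at 0.070 ± 0.17 (0.84). Leaving out 1 array moved these differences widely, to between 0.32 and 0.76 for MT2A, 0.29 and 1.25 for MT1F, 0.20 and 0.63 for MT1L, and -0.12 and 0.26 for MT1M. In 5 of 6 members both 16F16 arrays lay above both securinine arrays, MT1M being the exception, beside 29.3% of all genes, and 0 members lay wholly below, beside 26.4%. The MT1X difference stayed between 0.90 and 1.14, but its call was lost when any 1 of the 4 arrays compared was left out (adjusted p = 0.052 to 0.078) and over all probe sets (0.056), fits in which 0 genes of the whole table passed except without 16F16 replicate 2 (261). The MT1B call was lost under 9 of its 14 alternatives. Among these, leaving out either mock array only repeated the fit with the 4 arrays compared. All 3 comparisons draw on the same arrays, so they are not independent of each other.

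**Figure D2:**
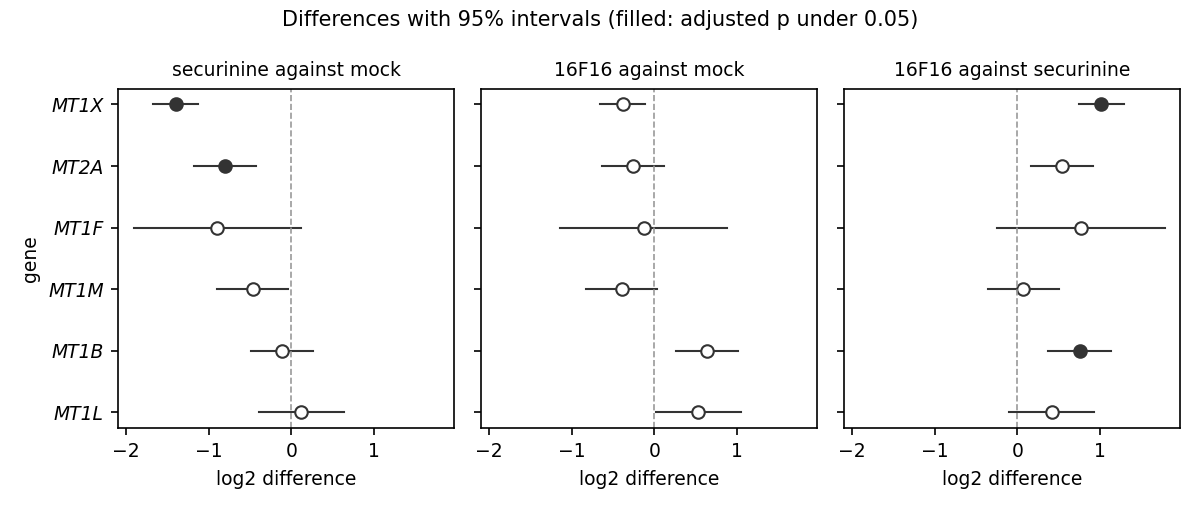
Log2 difference (horizontal axis) of each metallothionein in the 3 comparisons, with 95% intervals from limma; filled points have an adjusted p under 0.05. MT1X at -1.40 and MT2A at -0.80 are filled for securinine, no member is filled for 16F16 against mock, and MT1X at 1.02 and MT1B at 0.75 are filled for 16F16 against securinine.

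The 5 other measured metallothioneins of the cluster, MT4, MT3, MT1E, MT1G and MT1H, gave 0 calls in each of the 3 comparisons with limma. Of all genes, 19.0%, 1.50% and 9.51% were called, and 5 genes are too few to set 0 calls apart from those shares. At an unadjusted p under 0.05 they gave 0 with securinine, 0 with 16F16 and 1 (MT1H) between the compounds, beside 33.6%, 21.1% and 27.7% of all genes. MT1G lay at or below the lower quartile on 2 arrays and MT1H on 3. Their SEs with securinine ran from 0.17 (MT4) to 0.30 (MT1G), beside a median of 0.11 over all genes. MT1E and MT1H had the lowest adjusted p with securinine, at -0.26 ± 0.23 and -0.38 ± 0.20. The median of the 5 was -0.26 with securinine and 0.014 with 16F16. MT3, the neuronal form, differed by -0.13 ± 0.24 with securinine and 0.054 ± 0.24 with 16F16. MT1X stands at the end of the row away from MT4, and MT2A lies near the other end, with MT3 and MT1L as its nearest measured neighbours.

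**Figure D3:**
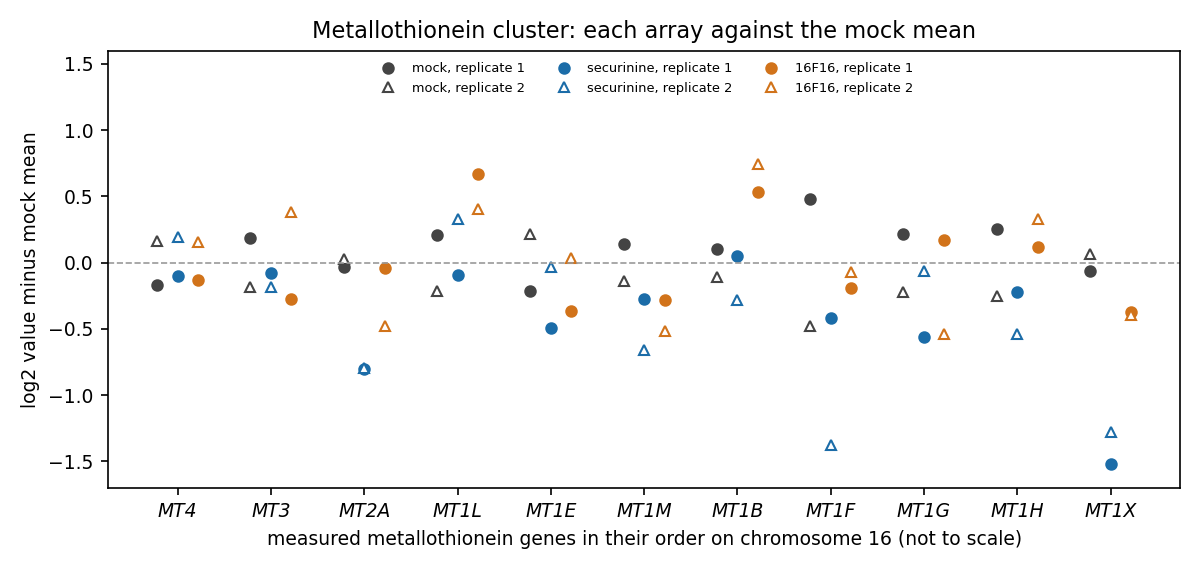
Log2 value minus the mean of the mock arrays (vertical axis) for the 11 measured metallothioneins in their order on chromosome 16, by array; filled circles are replicate 1 and open triangles replicate 2. MT2A and MT1X have both securinine arrays well below all mock arrays, and the replicates of MT1F stand 0.95 apart in mock and with securinine.

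Genes in the wider neighbourhood of the row on chromosome 16 were followed as a list of 14, of which 7 were measured. Their distances from the row were not examined. With securinine 4 fell and 1 rose, beside 10.6% of all genes that fell and 8.40% that rose. The median was -0.32, and that of all genes -0.035. BBS2, a subunit of the ciliary BBSome and the protein-coding gene next to the row on the MT4 side, fell by 0.94 ± 0.089. NUP93, a nuclear pore protein on the MT1X side, fell by 0.50 ± 0.091. COQ9, which serves coenzyme Q synthesis, fell by 0.47 ± 0.095, and NUDT21, a factor of messenger RNA 3′ end processing, by 0.32 ± 0.082. DOK4, a docking protein for receptor kinases, rose by 0.67 ± 0.098. With 16F16 BBS2 fell by 0.64 ± 0.089 and DOK4 rose by 0.78 ± 0.098. So 1 of the 7 fell and 1 rose, beside 0.779% and 0.719% of all genes. CIAPIN1 and OGFOD1 were the lowest in adjusted p among those not called, at 0.16 ± 0.093 and -0.11 ± 0.074 with securinine and 0.21 ± 0.093 and -0.25 ± 0.074 with 16F16. Between the compounds 0 of the 7 passed in limma, beside 9.51% of all genes, and 3 had an unadjusted p under 0.05, beside 27.7%. COQ9 was at 0.37 ± 0.095 and BBS2 at 0.29 ± 0.089.

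MTF1 itself and genes known as its targets or as induced by metals were a list of 13, of which 8 were measured. With securinine 4 rose and 2 fell, beside 8.40% of all genes that rose and 10.6% that fell. The list's median was 0.30, and that of all genes -0.035. MTF1 read 9.01 and 9.06 in mock, 9.52 and 9.40 with securinine, and 9.28 and 9.16 with 16F16, with no overlap between the groups. It rose by 0.42 ± 0.090 with securinine (adjusted p = 0.028) and was at 0.18 ± 0.090 with 16F16 (adjusted p = 0.32). Heme oxygenase HMOX1, which cadmium and oxidants induce, rose by 1.26 ± 0.19, and the near-identical HSP70 genes HSPA1A and HSPA1B rose by 0.85 ± 0.088 and 0.84 ± 0.089. SELENOH, a nuclear selenoprotein, fell by 0.41 ± 0.094, and NDRG1, a stress and differentiation gene, by 0.71 ± 0.13. PGF (-0.14 ± 0.11) and TXNRD2 (0.18 ± 0.092) did not pass. The list was thus split with securinine. MTF1, HMOX1 and the HSP70 genes rose, and SELENOH and NDRG1 fell, as MT1X and MT2A did. With 16F16 0 of the 8 passed in limma, beside 1.50% of all genes, and 0 had an unadjusted p under 0.05, beside 21.1%. The median was 0.062, and NDRG1 was at -0.19 ± 0.13. Between the compounds 3 of the 8 were called lower with 16F16 and 0 higher, beside 3.96% and 5.55% of all genes. They were HMOX1, HSPA1A and HSPA1B, by differences of -1.21 ± 0.19, -0.77 ± 0.088 and -0.76 ± 0.089, and MT1X was higher. SELENOH (0.28 ± 0.094) and NDRG1 (0.52 ± 0.13) did not pass there.

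Metal transport was thinly covered among the named probe sets. Of 11 zinc exporters, TMEM163 alone had a named probe set. It was at -0.21 ± 0.081 with securinine (adjusted p = 0.14 in limma), -0.060 ± 0.081 with 16F16 and 0.15 ± 0.081 between the compounds. Of 14 zinc importers 0 had a named probe set, and the unnamed probe sets were not searched for them. Of 15 copper handling genes 8 were measured. In limma 0 passed in any of the 3 comparisons, beside 19.0%, 1.50% and 9.51% of all genes. At an unadjusted p under 0.05 there were 3, 1 and 2 of the 8, beside 33.6%, 21.1% and 27.7% of all genes. The mitochondrial copper chaperone SCO1 was at -0.40 ± 0.12 with securinine and -0.46 ± 0.12 with 16F16. MEMO1, a copper-binding protein, was at 0.38 ± 0.11 with securinine. COX11 was at -0.24 ± 0.10 with 16F16. Between the compounds MEMO1 was at -0.43 ± 0.11 and CCS, which loads copper onto superoxide dismutase, at -0.27 ± 0.10. The list's median was 0.15 with securinine and 0.032 with 16F16.

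The glucocorticoid receptor and genes it induces were followed because the receptor also drives MT2A, and 9 of the 11 listed genes were measured, the receptor gene NR3C1 not among them. With securinine 4 fell and 2 rose, beside 10.6% of all genes that fell and 8.40% that rose. The median was -0.021, and that of all genes -0.035. KLF9, a Krüppel-like repressor, fell by 1.67 ± 0.16, the immunophilin FKBP5 by 0.69 ± 0.15, the clock gene PER1 by 0.42 ± 0.099 and the transcription factor FOXO1 by 0.34 ± 0.088. ERRFI1, an inhibitor of the EGF receptor, rose by 0.71 ± 0.087 and the kinase SGK1 by 0.69 ± 0.10. DUSP1 (0.27 ± 0.088) and CRISPLD2 (0.037 ± 0.092) did not pass. With 16F16 0 passed in limma, beside 1.50% of all genes, and 2 had an unadjusted p under 0.05, beside 21.1%. These were KLF9 at -0.46 ± 0.16 and ERRFI1 at 0.25 ± 0.087, and the list's median was 0.068. KLF9 was 1.21 ± 0.16 higher with 16F16 than with securinine, and ERRFI1 and SGK1 lower, by differences of -0.46 ± 0.087 and -0.48 ± 0.10. So 1 of the 9 was called higher and 2 lower, beside 5.55% and 3.96% of all genes. FKBP5 (0.48 ± 0.15) and FOXO1 (0.39 ± 0.088) did not pass between the compounds.

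**Figure D4:**
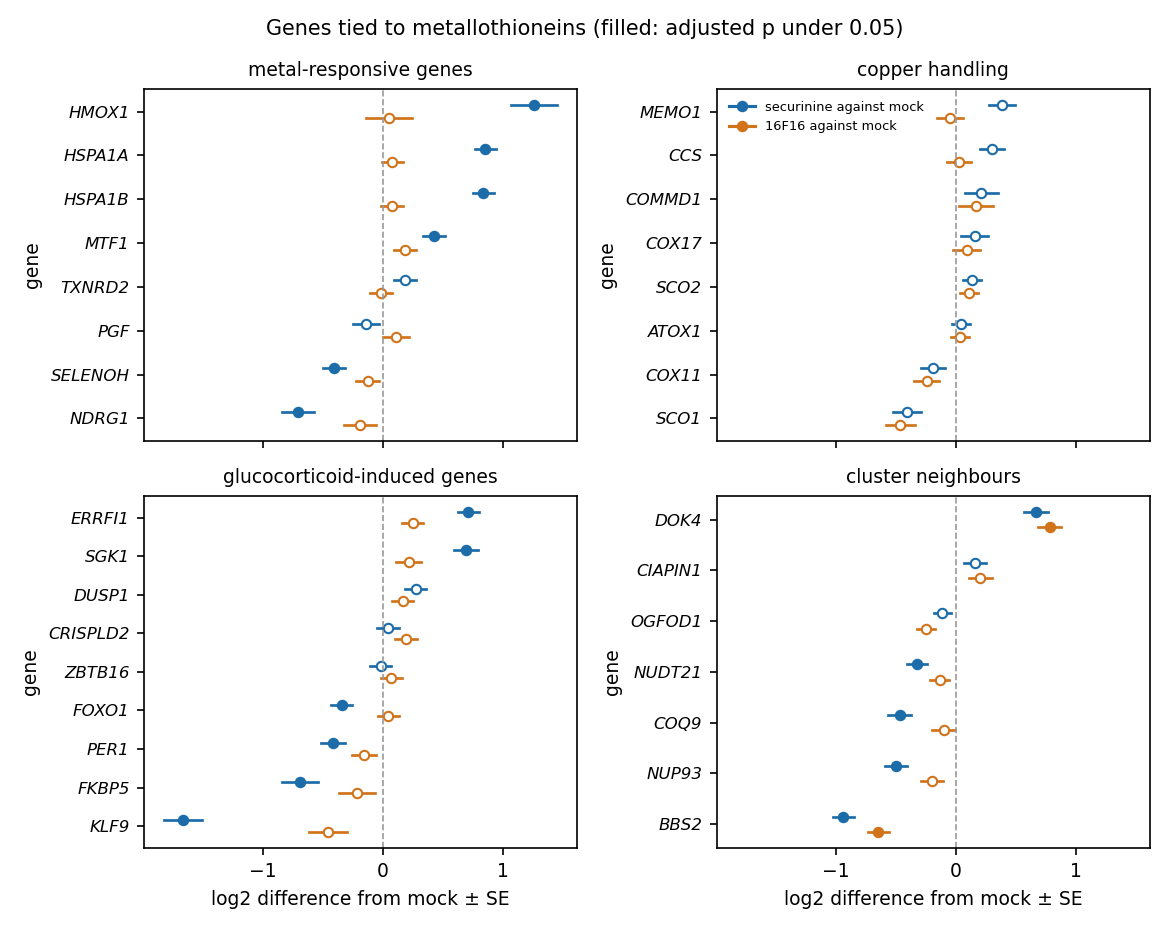
Log2 difference from mock ± SE (horizontal axis) of the measured genes of 4 lists, for securinine and 16F16; filled points have an adjusted p under 0.05. MTF1, HMOX1, HSPA1A and HSPA1B are filled above 0 for securinine, and KLF9 at -1.67 is the lowest point.

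Genes that tracked the members most closely were ranked among 11914 other protein-coding genes by the root mean square difference, over the 6 arrays, of log2 values taken relative to the mock mean. The closest to MT1X were CHML, a Rab escort protein (0.029), CHRDL1, a secreted antagonist of bone morphogenetic proteins (0.067), DOCK10 (0.069), TTYH2 (0.076) and the synaptic scaffold CNKSR2 (0.078). CHML read 9.11 and 9.24 in mock, 7.69 and 7.86 with securinine, and 8.79 and 8.73 with 16F16. The closest to MT2A were SPATC1L (0.050), FBXO5, an inhibitor of the anaphase-promoting complex (0.054), NIPAL3 (0.055), MPI, which isomerises mannose phosphate (0.055), and VASH2, a tubulin-trimming peptidase (0.061). MT2A stood at rank 313 for MT1X and MT1X at rank 2711 for MT2A, with a root mean square difference of 0.38. The measure depends on the size of a change as well as on its shape, and 6 arrays in 3 groups leave many genes with a like pattern.

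**Figure D5:**
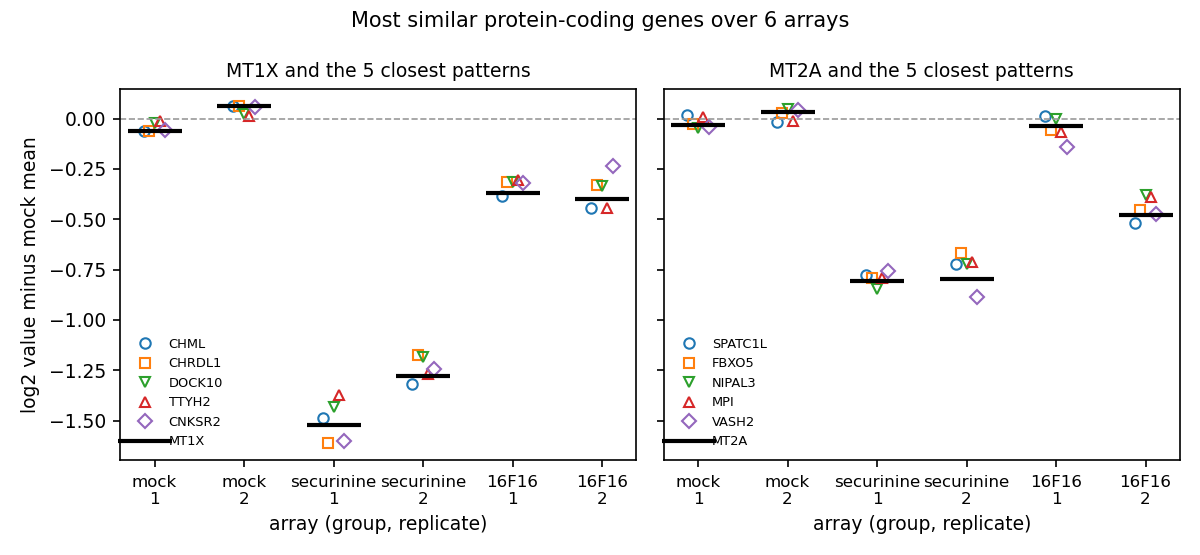
Log2 value minus the mean of the mock arrays (vertical axis) on each array for MT1X and MT2A (black bars) and for the 5 protein-coding genes closest to each (symbols). The 2 16F16 arrays lie close together for MT1X, while for MT2A and its 5 companions replicate 2 lies lower than replicate 1.

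Of 9 neuroblastoma markers 8 were measured, with a mean log2 value of 10.3 on both mock arrays, 9.76 and 9.84 with securinine, and 10.0 on both 16F16 arrays. TH, the enzyme that starts catecholamine synthesis, was not among the bright ones, at 5.10 to 5.61, below the upper quartile of each array. Of these 8 markers 3 fell with securinine (CHGA, DBH and STMN2), beside 10.6% of all genes, and 1 with 16F16 (CHGA), beside 0.779%. Between the compounds CHGA and DBH were called higher and ISL1 lower with 16F16, beside 5.55% and 3.96% of all genes. All were named after their values were seen. Of the astrocyte markers, GFAP and AQP4 were measured (2 of 5), with a mean of 3.79 and 4.01 in mock, 3.57 and 3.89 with securinine, and 3.88 and 3.88 with 16F16, and 0 passed. In bulk RNA fewer cells of a type and less RNA per cell cannot be told apart. Fibroblast, epithelial and endothelial markers gave 0 calls, with 2 of 5, 4 of 5 and 3 of 4 measured. Of 2 blood markers 1, CD14, rose with securinine, beside 8.40% of all genes. The part of these markers in the metallothionein values was not tested.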

How the data were processed

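Total RNA of 6 samples was hybridised as biotinylated cDNA, 1 array each, per the labels' protocols. The deposited file holds log2 expression of 53617 probe sets. Per the submitters' processing notes, RMA and limma were used (no versions listed). RMA sets the arrays to a common scale, which would hide a shift of most genes. Which genome build and annotation the authors used is not given in the sources used here.

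Probe sets were named through the platform annotation, checked by Entrez identifier against RefSeq genes (GRCh38.p14): 16098 had 1 symbol, 0 had several and 37519 were unnamed there. For each of the 14884 genes the probe set with the highest mean was used. Genes were tested with limma 3.58.1 in R 4.3.3 (lmFit, eBayes) on the 6 arrays, group being the sole term, with 3 residual and 2.68 prior degrees of freedom, two-sided, with Benjamini-Hochberg adjustment over the 14884 genes and a call at an adjusted p under 0.05. Fits were tested on simulated data. Precision is limited by the number of arrays (median SE of 0.11 for a difference).

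All 6 members were tested, and a filter at the lower quartile, run as an alternative, kept 3. The members and lists were chosen with earlier results of these data known. Of each list, called genes and the 2 others with the lowest adjusted p were named per comparison, with MT3 added after its values were seen, and the 5 closest patterns were named for MT1X and MT2A. Alternatives were the 4 arrays compared, an intensity trend or robust prior, quantile normalization, median centring, the low-value filter, all probe sets, mean probe sets, a replicate block and leaving out each array.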

Additional observations from a re-analysis of the deposited data

How the results depend on the processing

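Of the 6 members, the number called with securinine was 2, and 1 over all probe sets, a fit that called 2499 of 53617 probe sets in place of 2823 of 14884 genes. Leaving out 1 mock or securinine array leaves 1 array in that group, and most calls of the whole table were lost there along with that of MT2A. Leaving out either 16F16 array only repeated the fit with the 4 arrays compared, which also called 2. With 16F16 against mock it was 0, and 1 (MT1X) when the variance prior followed intensity, which called 1808 genes in all. No gene of the table was called there with the 4 arrays compared, over all probe sets, with the replicate block or without any 1 array, where 2099 to 2904 genes (7250 over all probe sets) had an unadjusted p under 0.05 in limma. For 16F16 against securinine it was 2, and 1 with the 4 arrays compared, 1 with the low-value filter, which took out MT1B, and 1 with the replicate block. Over all probe sets it was 0 in limma, with 3 members at an unadjusted p under 0.05, and leaving out 1 array gave 0 to 1. These counts of 0 come from fits that called 0 genes in all, namely over all probe sets, without securinine replicate 1, without securinine replicate 2 and without 16F16 replicate 1, where 3 to 4 members had an unadjusted p under 0.05. MT2A passed between the compounds with an intensity trend (adjusted p = 0.011) and without 16F16 replicate 2 (0.047). Leaving out 1 array turned the sign of MT1B with securinine (-0.28 to 0.054), MT1L with securinine (-0.092 to 0.33), MT1F with 16F16 (-0.61 to 0.35) and MT1M between the compounds (-0.12 to 0.26), none of them called. The cause of these shifts was not tested. Across all genes, the differences between replicates 1 and 2 correlated at -0.032, 0.038 and -0.050 between groups. A correlation over all genes cannot show whether single genes share a replicate effect. For MT1M, replicate 1 minus replicate 2 was 0.28 in mock, 0.38 with securinine and 0.23 with 16F16. For MT1X, MT2A, MT1F and MT1B the sign of this difference was the same in mock and with securinine and turned with 16F16. For MT1L it turned with securinine alone. Of the other metallothioneins, MT1E (-0.43, -0.46 and -0.40) and MT4 (-0.33, -0.30 and -0.28) kept the sign in all groups. MT3, MT1G and MT1H did not. With securinine against mock, the block lowered the SE of MT1M from 0.17 to 0.090, of MT1F from 0.41 to 0.30 and of MT1X from 0.110 to 0.104. It did not lower that of MT2A, MT1B or MT1L. Whether arrays of one replicate number belong together was not tested. With the replicate block MT1M passed with securinine (-0.47, adjusted p = 0.038), MT1B lost its call between the compounds (0.071), and no other member's call changed.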
